A study of Mus musculus with 2 samples.

Results

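The interleukin-6 family examined here comprises 3 cytokine genes, Il6, Osm and Lif, and the 4 receptor chain genes Il6ra, Il6st, Osmr and Lifr. They were taken by gene symbol, from probe sets that the platform annotation assigns to exactly 1 gene, which gave 16 probe sets of 34945 such probe sets and 7 genes of 18193. Expression was measured on Affymetrix arrays in bone marrow cells of C57BL/6J mice, grown for 7 days with GM-CSF at 20 ng/ml, a growth factor that yields dendritic-like myeloid cells, and then given 10 ng/ml lipopolysaccharide (LPS), the bacterial ligand of TLR4. One sample was wild type and the other came from miR-155-/- mice, which lack the microRNA miR-155. Both received LPS, so neither shows the unstimulated level of any gene. The time in LPS, the age and number of mice and the design of the deleted allele are not stated in the labels. The growth protocol names macrophages where the other labels name dendritic cells.

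Cytokines of this family share a signalling chain, gp130, encoded by Il6st. IL-6 first binds its own receptor, encoded by Il6ra, and then gp130, while oncostatin M (Osm) and leukaemia inhibitory factor (Lif) bring gp130 together with the chains encoded by Osmr or Lifr. The paired chains activate Jak kinases and chiefly STAT3, and STAT3 induces Socs3, which limits the signal. Myeloid cells make IL-6 in bulk after TLR4 is engaged, and soluble receptor lets IL-6 act on cells that carry gp130 without the IL-6 receptor. How loss of miR-155 bears on these transcripts in activated dendritic cells is the question that the pair of arrays addresses.

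The mature sequence of the deleted microRNA and the proximal promoter of Il6 are shown because the arrays differ in the first by genotype and Il6 had the lowest difference of the family. In the microRNA, at chr16:84714143-84714165 on the plus strand (GRCm38.p6, from RefSeq), capitals mark the seed, bases 2 to 8, which pairs with target transcripts. In the promoter, the 250 bases before the start of Il6 at chr5:30012864-30013113 on the plus strand (GRCm38.p6, from RefSeq), capitals mark the motif matches described next.
mmu-miR-155-5p: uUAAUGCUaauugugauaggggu
Il6 promoter: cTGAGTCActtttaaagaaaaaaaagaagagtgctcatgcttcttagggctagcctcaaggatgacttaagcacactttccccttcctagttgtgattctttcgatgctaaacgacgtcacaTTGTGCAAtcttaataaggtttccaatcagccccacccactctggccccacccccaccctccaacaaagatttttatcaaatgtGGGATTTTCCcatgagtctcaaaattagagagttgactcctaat

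Both strands of the 250 upstream bases were searched for the NF-kB motif (GGG, 3 bases of any kind, T, 1 base of any kind and CC), TTNNGNAA (C/EBP), TGANTCA (AP-1), TGACGTNA (CRE) and TTCNNNGAA (STAT), and no 2 matches in the Il6 promoter overlap. The Il6 promoter held 1 NF-kB match 44 to 35 bases before the start, 1 C/EBP match 128 to 121 bases before it and 1 AP-1 match 249 to 243 bases before it. These are the families of factors known to drive Il6 in LPS-stimulated myeloid cells. Among 32851 promoters of the same length, 14.9% held the NF-kB letters, 36.8% the C/EBP letters, 6.75% the AP-1 letters, 2.52% the CRE letters and 7.02% the STAT letters. Lif held 1 NF-kB and 1 AP-1 match, Il6ra C/EBP matches at 2 places, and 1 of the Lifr promoters 1 NF-kB match and the other 2, whereas the Il6st and Osmr windows held none of the 5 motifs. A match describes letters in this window and is no evidence of binding. The lack of a match does not show that a binding site is absent. Promoter entries were found for 6 of the 7 genes, all but Osm.

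The deposited signal had a median of 58.4 on the wild-type and 78.3 on the knockout array, and the median measured gene was 0.54 higher on the log2 scale in the knockout. The arrays were therefore quantile normalized, and values given below are normalized intensities unless said to be deposited ones. Each difference is log2 of the knockout signal over the wild-type one. A gene was measured where at least 1 array lay above a floor of 67.6, the median of all normalized values; the floor is no detection call. With 1 array per genotype no p-value could be computed, and the precision is limited by the number of arrays. The single error available is how far probe sets of 1 gene differ from each other, an SD of 0.29 (11653 probe sets of 4410 genes), which includes no variation between mice or cultures. Mir155hg, the host transcript of the microRNA, read 1136 in the wild type against 159 in the knockout, the direction that the labels give; the labels do not say whether the deletion covers its probe set.

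Of the 7 genes, 5 were measured, and 9 of their 16 probe sets lay above the floor on at least 1 array. Il6 and Osm were lower in knockout cells, the brightest probe sets of Il6st and Il6ra differed by less than that SD, Lif was above the floor in the knockout alone, and Osmr and Lifr stayed under the floor on both arrays. At a threshold of 2-fold, 1 gene was lower (Il6) and 0 were higher. Each array measures RNA of a whole culture, so fewer cells of a type and less RNA per cell cannot be told apart. Among all 11878 measured genes 0.615% were at least 2-fold lower and 0.572% at least 2-fold higher.

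**Figure D1:**
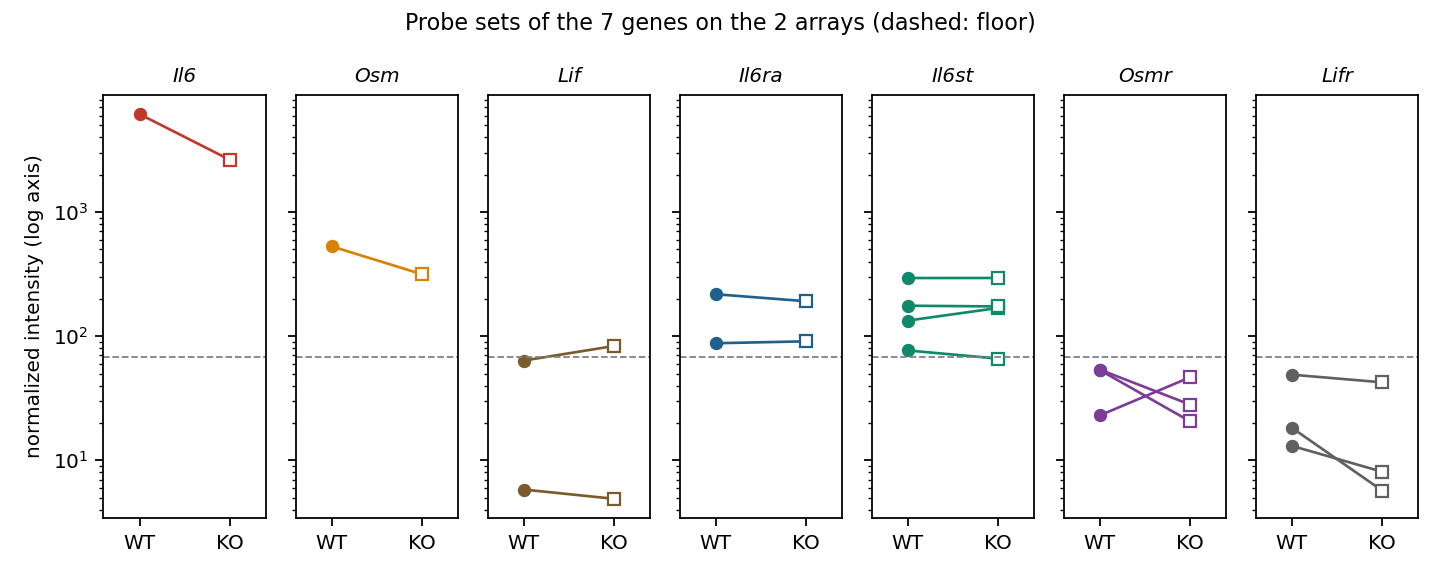
Normalized intensity (log axis) of every probe set of the 7 genes on the wild-type (WT, filled circles) and miR-155-/- (KO, open squares) array, 1 array each, with a line joining the values of a probe set and a dashed line at the floor of 67.6. Il6 reads 6155 in WT and 2634 in KO and Osm 529.9 and 316, the brightest Il6st probe set reads 294.4 and 294.6 while its others run from -0.22 to 0.34 on the log2 scale, and all 6 probe sets of Osmr and Lifr lie under the floor.

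Il6 encodes the founding cytokine of the family, a driver of the acute phase response and of T-cell differentiation. Its deposited signal was 5201 in the wild type and 3229 in the knockout, so the knockout was lower by 1.61-fold even before scaling. After normalization the signals were 6155 and 2634, a difference of -1.22 (2.34-fold lower). The difference is larger than the probe set SD of 0.25 found among bright genes, although Il6 itself has 1 probe set and no second one to set beside it.

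The position of the Il6 probe set on its own array does not depend on any scaling by a constant. It ranked 404th from the brightest of 45037 probe sets on the wild-type array and 1264th on the knockout array. In the order of differences Il6 was number 23 from the lowest of 11878 measured genes. Large differences were rare among bright genes. Of 4416 genes in the bright range (the top 1 of 3 ranges of mean signal), 0.294% (13 genes) were at least 2-fold lower. Of 419 genes with a mean signal at or above that of Il6, Il6 was the single one at least 2-fold lower, 0 were 2-fold higher, and the next lowest was Serpinb2, a serpin gene induced in activated myeloid cells, at -0.76. That cut was set by the level of Il6 itself, and Il12b (-1.27) and Car2 (-1.03) lay at slightly lower mean levels.

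**Figure D2:**
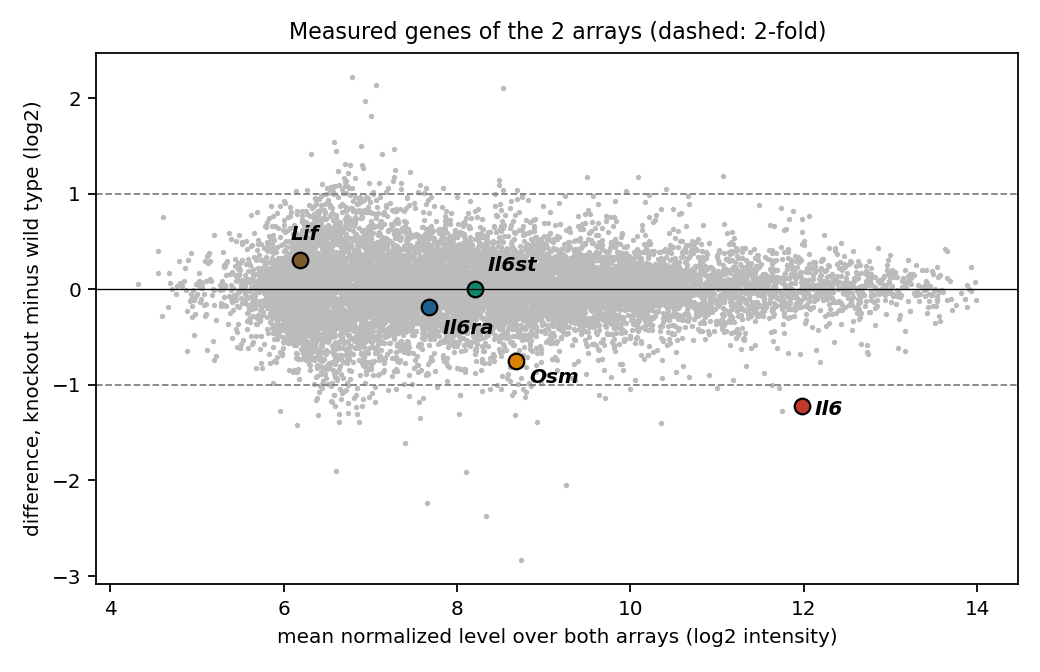
Difference between knockout and wild type (log2, vertical) against the mean normalized level over both arrays (log2 intensity, horizontal) for 11878 measured genes in grey and the 5 measured family genes in colour, with dashed lines at 2-fold. Il6 (-1.22) lies below the 2-fold line at the bright end, beside Il12b (-1.27) and Car2 (-1.03) at slightly lower mean levels, Osm (-0.75) at the lower edge of the genes of its level, and Il6ra, Il6st and Lif within the bulk; the Lif point is a lower bound.

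Osm encodes oncostatin M, a cytokine of activated macrophages, dendritic cells and neutrophils that acts mostly on stromal, endothelial and liver cells. Its deposited signal was 429.9 in the wild type and 386 in the knockout, 1.11-fold lower. After normalization the signals were 529.9 and 316, a difference of -0.75 (1.68-fold lower), which exceeds the probe set SD of 0.29 for genes of middle signal. Osm too is read by a single probe set. It was number 239 from the lowest of the measured genes, and 2.01% of them had a difference as low or lower.

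Lif encodes leukaemia inhibitory factor, which sustains stem cells and acts on bone and nerve. The brighter of its 2 probe sets had deposited signals of 55.0 (wild type) and 97.7 (knockout). After normalization the wild-type value (63.7) lay under the floor and the knockout value (83.4) above it, so the knockout was at least 1.23-fold higher. That bound of 0.30 is smaller than the probe set SD of 0.34 for dim genes, and 16.4% of all measured genes were at least as high. The other Lif probe set read 5.82 and 4.90, far under the floor on both arrays.

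Il6ra encodes the chain that gives IL-6 its specificity and that can be shed from the cell surface. Its brighter probe set read 218 in wild-type and 191 in knockout cells, a difference of -0.19, and the other read 87.8 and 91.0, a difference of 0.05. The probe sets thus pointed in opposite directions, each by less than the SD of 0.34 for dim genes. The direction of the brighter probe set also turned with the scaling, being 0.37 on deposited values (180 against 232, where the median measured gene was 0.54 higher) and 0.04 with scaling on hybridisation controls. No difference in Il6ra was detectable on these arrays.

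Il6st encodes gp130 itself, the chain all 3 cytokines need. Its brightest probe set read 294.4 in wild-type and 294.6 in knockout cells, a difference of 0.00. Of its 4 probe sets, 3 were above the floor on both arrays, with differences from -0.02 to 0.34 (mean 0.11, SD 0.20 between probe sets). The highest of these, from a probe set at 134 and 169, exceeds the probe set SD of 0.29. The remaining probe set was at 76.8 in wild-type cells and just under the floor (66.0) in the knockout. Il6st therefore lay in the middle of the measured genes, 48.7% of which had a difference as low or lower, while Il6 lay at their lower end.

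Osmr and Lifr encode the partner chains through which oncostatin M and LIF signal; both are characteristic of stromal, epithelial and liver cells more than of myeloid cells. All 3 Osmr probe sets lay under the floor, reading 53.8, 53.4 and 23.0 in wild-type and 28.1, 20.6 and 46.7 in knockout cells. All 3 Lifr probe sets did as well, at 49.0, 18.3 and 13.1 in wild-type and 42.5, 5.70 and 8.09 in knockout cells. The Osmr probe sets disagreed in direction, with 2 lower and 1 higher. No fold change is given for either gene, and a signal under the floor does not show that a transcript is absent.

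**Figure D3:**
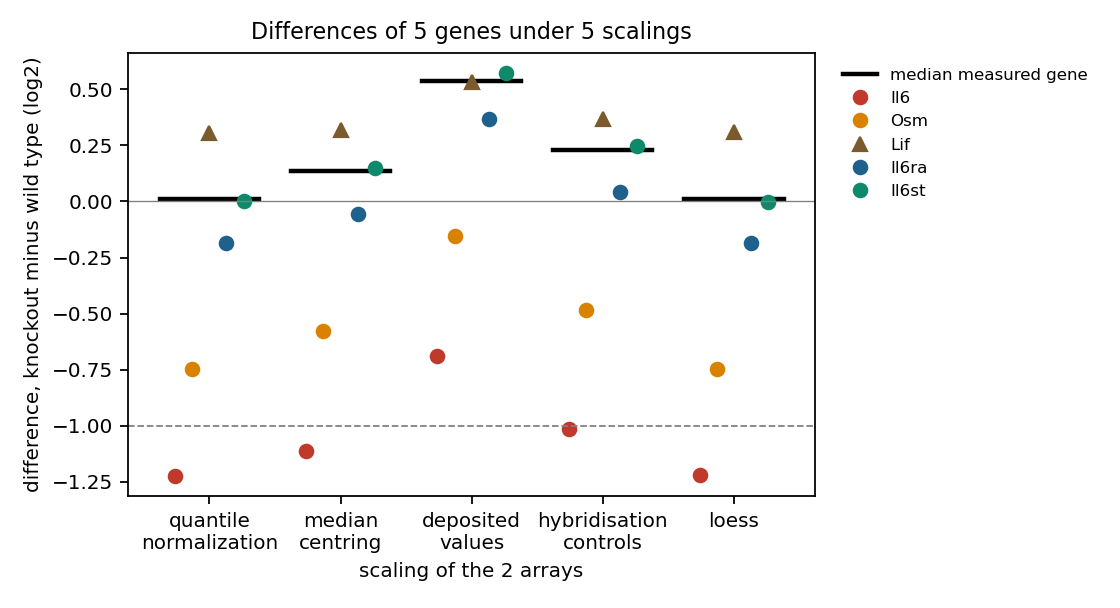
Difference between knockout and wild type (log2) of the 5 measured genes under 5 ways of scaling the arrays, with a black bar at the median measured gene, a dashed line at 2-fold lower, and triangles for lower bounds. Il6 and Osm lie under 0 and under the bar in each of the 5, Il6 between -1.22 and -0.69 and Osm between -0.75 and -0.16, whereas Il6st follows the bar.

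The size of each difference depended on how the arrays were brought to one scale, while Il6 was the lowest and Osm the next lowest of the 5 under each scaling. Il6 was at -1.22 with quantile normalization, -1.22 with loess, -1.11 with median centring, -1.01 with scaling on 18 hybridisation controls and -0.69 on deposited values, so that it missed 2-fold with no scaling. Median centring, hybridisation controls and deposited values differ by a constant for all genes, so they are not separate checks. Relative to the median measured gene under each scaling, Il6 lay between -1.25 and -1.23. Osm, set against the same gene, lay between -0.76 and -0.69, Il6ra between -0.20 and -0.17, and Il6st between -0.01 and 0.04. Lif was above 0 under all 5 scalings, yet on deposited values it lay at the median gene (0.00 relative to it).

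By the distance between log2 levels on the 2 arrays, the 5 measured genes most like Il6 were Il12b, Ccl3, Car2, Serpinb2 and Irf8, at distances of 0.33, 0.39, 0.40, 0.44 and 0.45. Likeness over 2 arrays rests on 2 values per gene and says nothing of shared control. Because these genes were chosen by their levels on both arrays, their lower knockout signals follow from the choice. Il12b, the p40 subunit of interleukins 12 and 23, read 5331 and 2212, a difference of -1.27 with both of its probe sets lower. Car2, a carbonic anhydrase gene, read 4788 and 2348 (-1.03). Ccl3, an inflammatory chemokine gene, had a difference of -0.68, and Irf8, a regulator of dendritic cell fate, one of -0.66.

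The remaining ligands and receptors of the family were mostly too dim to read. Of 13 listed genes, 8 had a probe set naming 1 gene and 4 were measured, 2 lower and 2 higher, with a median difference of 0.09. The median over all measured genes was 0.01, with 48.5% of them lower and 51.5% higher. Ebi3, the subunit that pairs with p28 to make IL-27, a cytokine that also signals through gp130, was lower by 1.74-fold (3414 against 1962, a difference of -0.80). Ebi3 was at -0.56 with hybridisation controls and at -0.23 on deposited values, short of 1.5-fold in both. At a threshold of 1.5-fold, 4.1% of all measured genes were lower and 4.57% higher. Clcf1, a ligand of the ciliary neurotrophic factor receptor, read 150.0 and 137 (-0.14), but over its 3 measured probe sets the differences reached 1.01 and 1 was lower. Cntfr was above the floor in knockout cells alone (at least 1.44-fold higher). Il11, Ctf1, Il31 and Il27ra lay under the floor on both arrays.

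The genes that carry the gp130 signal lay on both sides of 0. Of 17 listed kinases, STATs, phosphatases, adaptors and sheddases, 16 had a probe set naming 1 gene and all 16 were above the floor on both arrays; 9 were lower and 7 higher, with a median of -0.06 and none past 1.5-fold at its brightest probe set. Other probe sets went further, down to -1.54 for Stat5a and -0.89 for Pias3, and the list median was -0.26 with averages over all probe sets. At the brightest probe sets, 6 of the 16 were below 0 with median centring, 5 with hybridisation controls and 0 on deposited values. The brightest were Jak2 and Jak1, kinases bound to gp130, at -0.12 and -0.09, and Ptpn2, a phosphatase that acts on Jak1, at 0.07. Stat3, the main transcription factor of the pathway, is singled out after its value was seen: it read 2023 in wild-type and 1402 in knockout cells (-0.53), with 3 of its 4 probe sets lower and the remaining one at 0.23. On deposited values Stat3 was at 0.07, which lies under the 0.54 of the median gene.

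**Figure D4:**
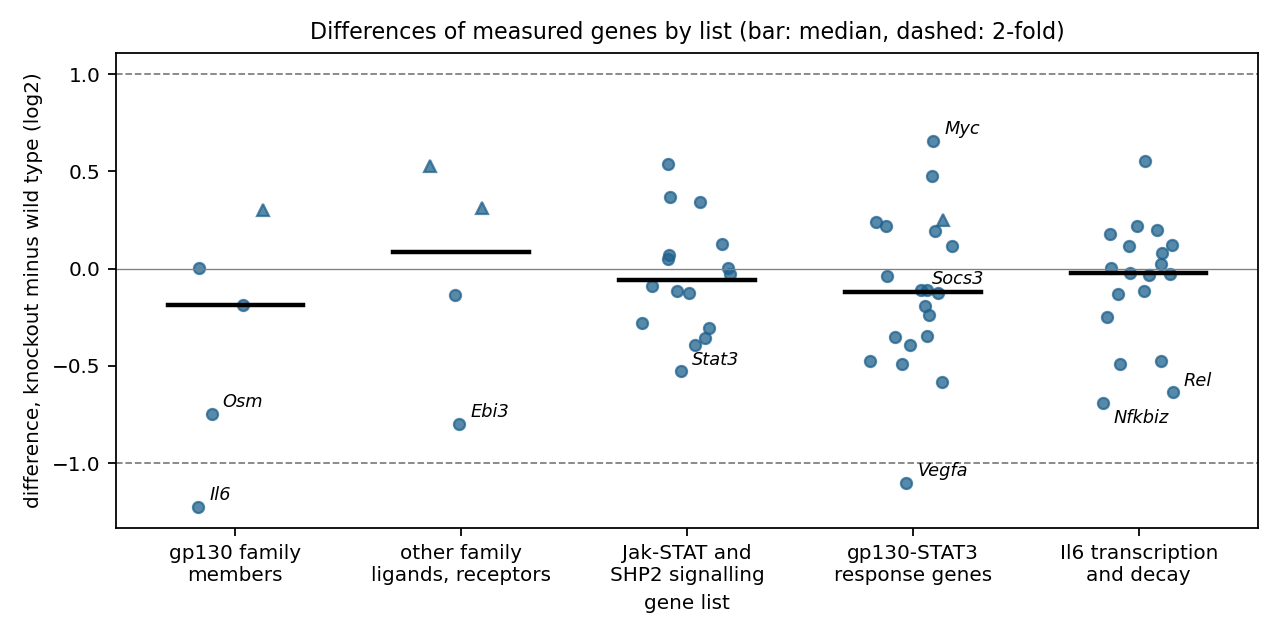
Difference between knockout and wild type (log2) of each measured gene in 5 gene lists, as circles (above the floor on both arrays) or triangles (lower bounds), with a black bar at the median of each list and dashed lines at 2-fold. Medians run from -0.19 to 0.09, and Il6 and Vegfa lie below the lower line under the quantile normalization shown.

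Genes that gp130 and STAT3 are known to induce were split. Of 21 listed, 20 were measured, 13 lower and 7 higher, with a median of -0.12. Those below 0 numbered 12 with median centring, 8 with hybridisation controls and 1 on deposited values. Socs3, the feedback inhibitor that binds gp130, read 7631 in wild-type and 7066 in knockout cells, a difference of -0.11 that is under the probe set SD and turned to 0.02 with hybridisation controls. Mcl1, a survival gene, and Il1rn, the interleukin-1 receptor antagonist gene, which with Socs3 are the 3 brightest of the list, had differences of -0.04 and -0.24. Past 1.5-fold were Vegfa, the vascular growth factor gene, at 385 and 179 (-1.10), and the growth regulator Myc, dim at 89.5 and 141 (0.66). The second Vegfa probe set differed by -0.06, so the difference rests on 1 probe set. Vegfa missed 2-fold with median centring (-0.96), with hybridisation controls (-0.87) and on deposited values (-0.54), the last also short of 1.5-fold. Several of these genes also answer directly to LPS, to hypoxia or to growth factors, so the list does not isolate the gp130 signal.

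Under quantile normalization, factors known to act at the Il6 promoter or on Il6 mRNA decay were about as often lower as higher. Of 19 measured, 10 were lower and 9 higher, with a median of -0.02. The number below 0 was 6 with median centring, 4 with hybridisation controls and 2 on deposited values. Past 1.5-fold were Nfkbiz, which encodes IkB-zeta, a nuclear cofactor that LPS-stimulated cells need for Il6 transcription, and Rel, the NF-kB subunit c-Rel. Nfkbiz read 1421 in wild-type and 881 in knockout cells (-0.69), and all 3 of its probe sets were lower, down to -0.89. Rel read 473 and 304 (-0.64) with 1 probe set. Nfkbiz and Rel fell short of 1.5-fold with median centring (-0.51 and -0.48) and with hybridisation controls (-0.41 and -0.38). On deposited values both genes lay near 0, at -0.09 and -0.05, under the 0.54 of the median gene. The brightest of the list, Nfkbia (10260 and 10060), Cebpb (5887 and 6391) and Zfp36l1, a decay factor gene (3798 and 3708), differed by -0.03, 0.12 and -0.03.

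Dendritic cell markers were above the floor on both arrays for 8 of 9 matched genes, among them Itgax, Ccr7, H2-Aa and Cd74. Each sum given here takes every matched gene of a list, also those under the floor, at values not set to the floor. Signals of the 9 dendritic cell genes summed to 37062 in the wild type and 33123 in the knockout. Of the 9, 7 were lower, from Irf8 (-0.66) and Ccr7 (-0.55) to Cd74 (-0.05) and Batf3 (-0.02). The 2 higher were Itgax (0.31) and Flt3 (at least 0.39, above the floor in the knockout alone). Among all measured genes 48.5% were lower and 51.5% higher. Macrophage and monocyte markers were above the floor on both arrays for 8 of 9 matched genes, with C1qa under it, and summed to 36440 and 37686. Of these 8, 6 were higher and 2 lower. Mrc1 was at 1.06, Ccr2 at 0.84 and Mertk at 0.81, so these genes were higher where Il6 and Osm were lower. The other higher ones, Cd68, Adgre1 and Csf1r, were at 0.23, 0.20 and 0.20. The lower ones were Cd14 (-0.43) and Fcgr1 (-0.24). Of the 4 measured Ccr2 probe sets 1 was lower, at -0.48. Of 7 matched B and plasma cell markers 5 were measured and all 5 were lower (sums 1683 and 409), 3 of them above the floor in the wild type alone. Ighm, the brightest, had 8 measured probe sets, 5 lower and 3 higher, from -3.73 to 0.50. Of 7 matched mast cell and basophil markers 6 were measured and 5 were lower (sums 3307 and 1756), 3 of them above the floor in the wild type alone. The sums were mostly Hdc (2624 and 1411). Kit was at -0.05, and Cma1, the 1 higher, at 0.15. Cd79a, Pax5 and Fcer1a were under the floor on both arrays. Granulocyte markers were lower in 7 of 10 genes, while their sum was higher in the knockout (11697 and 13837). S100a8 and Mmp8, the brightest of them, were higher (0.43 and 0.37), as was Csf3r (0.20). The lower ones ran from Ltf (-0.72, a bound because its knockout value lay under the floor) to Mpo (-0.15). Of 10 stromal and endothelial markers 6 were measured, 3 lower and 3 higher (sums 9233 and 6063, mostly Thbs1, with Col3a1, Dcn, Cdh5 and Pecam1 under the floor). Of 8 T and NK cell markers 3 were measured (sums over all 8 of 614 and 462), with Cd3e, Cd3d, Cd3g, Nkg7 and Ncr1 under the floor. Thy1 was lower (-1.12), and the other 2, Cd4 and Cd8a, were higher. The part of these cell types in the lower Il6 and Osm signals was not tested.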

How the data were processed

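One array per genotype was compared. Biotin-labelled cRNA was made from 6 ug total RNA, per the labels' protocols. The authors deposited signal intensities on a linear scale for 45101 probe sets; how they were computed and scaled is not given in the sources used. The log2 intensities of 45037 non-control probe sets were quantile normalized because the array medians differed by 34.1%. Values under the median (67.6) were set to it, and genes read by several probe sets are shown by the one with the highest mean. Genes were named from the platform annotation, updated through RefSeq (GRCm38.p6): 34945 probe sets named 1 gene, 932 several and 9160 were unnamed. With 1 array per group no test was run, and calls are by size (2-fold). Named were all 7 family genes, genes of the pathway lists past 1.5-fold, at most the 3 brightest of each such list, and the 5 genes nearest to Il6. Stat3, Stat5a, Pias3, marker genes, chromosomal neighbours and listed genes under the floor are named outside that rule, after their values were seen. The genes and lists were chosen with earlier results of these data known. Alternatives changed the scaling, the floor and the probe set rule. The normalization code was tested on simulated data, which does not check the values of any gene given here. Python 3.11.15, pandas 2.3.3 and statsmodels 0.14.6 (loess span 0.3) were used.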

Additional observations from a re-analysis of the deposited data

How the results depend on the processing

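Across 8 alternatives, 86 of 109 values stayed within the probe set SD of 0.29 (counts within 1.5 times), and 23 moved further. Il6 and Osm have 1 probe set each and lay above both floors, so changes of floor or probe set rule could not move them. Such values are among the 86, so the tally is no measure of how firm the Il6 and Osm differences are. The single difference past 2-fold, that of Il6, kept its sign, but smaller differences changed theirs, among them Il6ra and several list medians. Without scaling, Il6 was at -0.69, Osm at -0.16, Il6ra at 0.37 and Il6st at 0.57, and 0 family genes were 2-fold lower. The medians without scaling were 0.37 for the 7-gene family, 0.46 for its other ligands and receptors, 0.51 for Jak-STAT signalling, 0.41 for STAT3 response genes and 0.58 for Il6 regulators, beside 0.54 for all measured genes, and this shift is built into the setting. With the floor at the 75th percentile the family median was -0.75 and that of the other ligands and receptors -0.80, since fewer genes were measured; with no floor the latter was -0.47. All measured genes at least 2-fold higher numbered 68, and 117 with median centring, 855 without scaling, 181 with hybridisation controls, 1288 with no floor and 11 with the higher floor. Those at least 2-fold lower numbered 73, and 45, 12, 33, 1304 and 25 in the same order. The higher floor gave no value for Il6ra and Lif, and averaging probe sets none for Lif. Dim genes limit the reading of Lif, Osmr and Lifr. No paired analysis was possible because each genotype has 1 array.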

Other observations

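Osm and Lif are neighbours on chromosome 11, as are Osmr and Lifr on chromosome 15 (gene order from GRCm38.p6), and the measured genes around them were read after the family's values had been seen. Castor1, which encodes an arginine sensor of the mTORC1 pathway and is the measured gene before Osm, read 294.0 in wild-type and 201 in knockout cells (-0.55), between Osm at -0.75 and Tbc1d10a at -0.05. After Lif came Mtmr3, a lipid phosphatase gene, at -0.34, and Ascc2 at -0.06. Around Osmr and Lifr, Rictor, a subunit gene of mTORC2, was at 0.01 and Fyb, an adaptor gene of haematopoietic cells, at 0.00, while Wdr70 and Nup155 on the other side were at 0.31 and 0.45. These are values of 1 array per genotype, and no difference between the neighbourhoods was tested.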
